A study of Mus musculus with 7 samples.

Results

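The TAM system consists of 3 receptor tyrosine kinases, Tyro3, Axl and Mertk, and their 2 bridging ligands, Gas6 and Pros1 (protein S). These 5 genes were found on the array by symbol, taking every probe set annotated to exactly one of them, which gave 8 of the 45037 probe sets tested and 5 of the 18193 genes with a symbol of their own. All 8 probe sets were kept, and no filter on low values was applied. Expression was measured in wound-edge skin on day 5, in 3 C57BL/6 mice that are MFG-E8 WT (animals 2, 3 and 4) and 4 C57BL/6 mice that are MFG-E8 KO (animals 8, 10, 11 and 12), with 1 biotin-labelled array of total RNA per animal. The labels give no age, sex, litter or batch, and neither the allele nor the part of Mfge8 that it removes. Precision is limited by there being only 7 arrays.

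MFG-E8 is a secreted protein that binds phosphatidylserine on dying cells and hands them to alpha-v integrins on phagocytes. Gas6 and protein S do the same job by a separate route: their vitamin K-dependent Gla domains bind phosphatidylserine, and their other ends engage the TAM receptors. In skin, Mertk is known from macrophages and Axl from Langerhans cells, fibroblasts and vessels. Tyro3 is known chiefly from nerve cells outside the skin, and the receptors also damp cytokine signalling in myeloid cells. The question put to these 5 genes was whether any of them differed where the MFG-E8 route was missing.

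All values are centred log2 values, in which 1 unknown constant per probe set had been subtracted from every array. A value of 0 is therefore no level, and differences are given as KO minus WT, from which the constant drops out. The genotype labels were checked on Mfge8 itself, whose 1 probe set (1420911_a_at) read 0.91, 0.76 and 1.0 in WT animals 2, 3 and 4, and -0.64, -0.96, -1.14 and -1.30 in KO animals 8, 10, 11 and 12. It fell by 1.90 on the log2 scale (SE 0.16, limma adjusted p = 0.00875), without overlap. Leaving out WT animal 2 took the limma adjusted p to 0.0922. It was 0.0669 when WT animal 3 was left out and 0.059 when KO animal 10 was. The recovered level of this probe set was at least 8 on the log2 scale (a bound on its lowest array, recovered from how finely the values had been rounded), which holds for the KO animals too. Whether it reads the removed part is not given in the sources used here. KO animals 8 and 10 stood apart in hair follicle genes, with a mean of 3.90 and 3.95 over the list against -2.45 to 0.70 in the other 5 animals, so member values are also given without them. The skin origin could be checked only coarsely: all 10 measured keratinocyte markers had a recovered level of at least 8 on the log2 scale.

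The 5 genes lie on 4 chromosomes. Mertk and Tyro3 are both on chromosome 2, with 119 protein-coding genes between them, Gas6 is on chromosome 8 and Pros1 on chromosome 16. Axl shares chromosome 7 with Mfge8, at a distance of 576 protein-coding genes in the RefSeq order. The stretches printed here show a sequence feature that the 5 promoters share and that played no part in choosing the 5 genes, the GC box GGGCGG (or CCGCCC on the other strand, in capitals). Each is a stretch of 60 bases from the 250 bases before the gene's start, placed to hold the GC box nearest that start. It is read 5′ to 3′ on the gene's strand, from RefSeq (GRCm38.p6).
Gas6, chr8:13494536-13494595, minus strand: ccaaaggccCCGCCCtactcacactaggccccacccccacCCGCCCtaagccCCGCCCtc
Pros1, chr16:62854247-62854306, plus strand: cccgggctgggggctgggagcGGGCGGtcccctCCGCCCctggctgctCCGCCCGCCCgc
Axl, chr7:25788734-25788793, minus strand: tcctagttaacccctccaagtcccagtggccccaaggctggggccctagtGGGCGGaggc
Mertk, chr2:128698789-128698848, plus strand: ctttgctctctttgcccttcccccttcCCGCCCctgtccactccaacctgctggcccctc
Tyro3, chr2:119799454-119799513, plus strand: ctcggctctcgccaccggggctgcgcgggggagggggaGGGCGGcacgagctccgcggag
Over the full 250 bases there were 4 GC boxes before Gas6, 5 before Pros1, 1 before Axl and 3 each before Mertk and Tyro3, counted on both strands with overlaps. Of all 32851 RefSeq promoters of the same length, 32.7% hold at least 1. The G and C content ran from 54.8% before Gas6 to 73.2% before Tyro3, against a median of 52.4% over all promoters. The AP-1 letters TGANTCA, held on either strand by 6.75% of all promoters, were in 0 of the 5 windows. These matches describe letters only.

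None of the 5 genes passed the test between genotypes. The count at a limma adjusted p under 0.05 was 0 of 8 probe sets, where 0.0444% of all probe sets passed, and 0 of 8 had an unadjusted p under 0.05, where 7.39% of all did. With 1 value per gene, 0 of 5 passed the adjusted test and 0 of 5 had an unadjusted p under 0.05, where 8.19% of all genes did. WT and KO animals overlapped in all 8, whereas 7.77% of all probe sets had groups that did not overlap. Of the 8 differences 7 were negative, 2 of them of Gas6 and 2 of Tyro3, where 46.8% of all probe sets were lower in KO. Their median was log2 -0.091 against 0.013 over all probe sets, and limma adjusted p ran from 0.695 to 0.997. An exact permutation test (two-sided, all 35 ways to split the arrays, smallest possible p 0.0571) gave p = 0.114 at the lowest, for Pros1 and for one of the probe sets of Axl. In the plot of values by animal, WT and KO animals overlap in each of the 5 genes, while Mfge8 separates the genotypes.

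**Figure D1:**
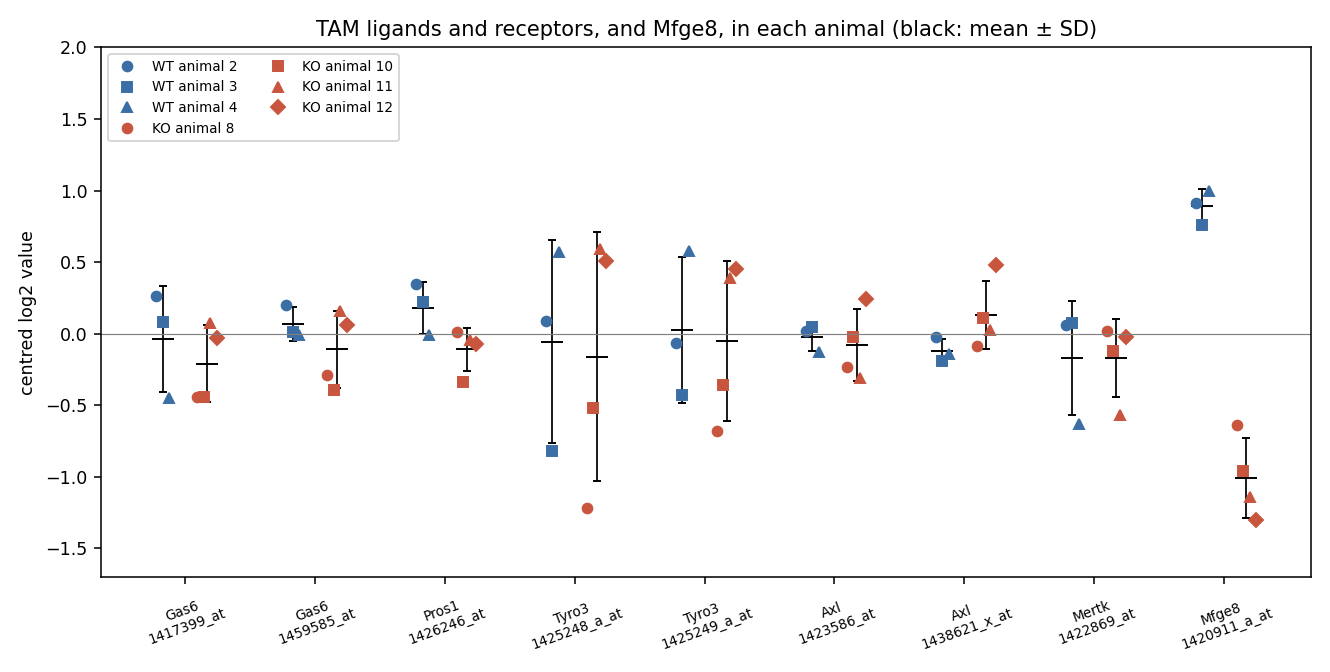
Centred log2 values (y axis) of the 8 probe sets of the TAM genes and of Mfge8 (x axis) in 3 WT (blue) and 4 KO (red) animals, 1 point per animal, with black bars for the group mean ± SD. WT and KO animals overlap in all 8 TAM probe sets, Tyro3 spreads most widely within both genotypes, and Mfge8 is lower in each of the 4 KO animals than in any WT animal.

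Among the ligands, Pros1 came closest to a difference. This gene encodes protein S, an anticoagulant cofactor of activated protein C as well as a TAM ligand. Its 1 probe set (1426246_at) read 0.35, 0.22 and -0.011 in WT animals 2, 3 and 4, and 0.011, -0.34, -0.047 and -0.073 in KO animals 8, 10, 11 and 12. Of the KO animals 3 lay below every WT animal and KO animal 8 lay just above WT animal 4. The WT mean was 0.18 ± 0.18 (SD, n = 3) and the KO mean -0.11 ± 0.15 (SD, n = 4). The difference was log2 -0.29 (SE 0.13, limma adjusted p = 0.695), with an unadjusted p of 0.0563 in limma and an exact permutation p of 0.114. Its 95% interval ran from log2 -0.60 to 0.0099, which is from 1.52-fold lower to 1.01-fold higher in KO. The sign stayed negative without any 1 animal (log2 -0.39 to -0.21) and without KO animals 8 and 10 together (log2 -0.24). An unadjusted limma p under 0.05 was reached with array weights (0.00875, of which KO animal 10 had the largest, 2.89), without WT animal 4 (0.0259), with eBayes trend and robust settings (0.0353), after quantile normalization (0.0484) and without KO animal 8 (0.0484). The limma adjusted p in these 5 fits lay between 0.227 and 0.686.

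Gas6, the ligand that can engage all 3 receptors, had 2 probe sets. The first (1417399_at) read 0.26, 0.080 and -0.45 in WT animals 2, 3 and 4, and -0.44, -0.44, 0.076 and -0.027 in KO animals 8, 10, 11 and 12. Low values were thus found in 1 WT and 2 KO animals, the latter being the 2 animals with high hair follicle genes. The difference was log2 -0.17 (SE 0.21, limma adjusted p = 0.885), with a 95% interval from 1.56-fold lower to 1.23-fold higher in KO. The second (1459585_at) read 0.20, 0.0092 and -0.0092 in WT and -0.29, -0.39, 0.16 and 0.058 in KO, in the same order of animals. It too was lowest in KO animals 8 and 10, but WT animal 4 was not low there. Its difference was log2 -0.18 (SE 0.16, limma adjusted p = 0.834), with a 95% interval from 1.46-fold lower to 1.13-fold higher. With array weights it was log2 -0.34, at an unadjusted limma p of 0.0459 and an adjusted one of 0.366. Without KO animals 8 and 10 the differences were log2 0.061 and 0.044, so the negative sign of Gas6 rested on these 2 animals. Without WT animal 4 the first probe set stood at log2 -0.38, and without WT animal 2 at log2 -0.023.

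Among the receptors, Mertk had almost the same mean in both genotypes. It is the TAM receptor best known for engulfment of dying cells by macrophages. Its 1 probe set (1422869_at) read 0.058, 0.076 and -0.63 in WT animals 2, 3 and 4, and 0.020, -0.12, -0.57 and -0.020 in KO animals 8, 10, 11 and 12. In each genotype 1 animal lay far below the rest, WT animal 4 and KO animal 11. The difference was log2 -0.0070 (SE 0.21, limma adjusted p = 0.997), and it turned to 0.040 after quantile normalization. The 95% interval ran from 1.41-fold lower to 1.39-fold higher in KO, so differences up to that size in either direction lay within the error. Its sign depended on single animals, which gave log2 0.11 when WT animal 2 or WT animal 3 was left out, 0.12 when KO animal 11 was, and -0.24 when WT animal 4 was.

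The measured macrophage markers were lower in KO in 15 of 15 genes, where 49.1% of all genes were lower, with a median of log2 -0.35. The differences were uneven, from log2 -1.36 for Itgam to -0.085 for Fcgr1 and -0.071 for Adgre1. Of the 15, 0 passed a limma adjusted p of 0.05 and 4 were lower at an unadjusted p under 0.05, where 5.94% of all genes were. Their mean per animal ran from -0.025 to 0.31 in WT and from -0.57 to 0.073 in KO, and KO animal 11, low in Mertk, had the lowest. WT animal 4, the animal lowest in Mertk, had -0.025. With the macrophage mean as a covariate the Mertk difference was log2 0.47 (SE 0.21), with an unadjusted limma p of 0.0535 and a limma adjusted p of 1.0. In whole tissue, fewer cells of a type and less RNA per cell cannot be told apart, and the part of macrophage number in the Mertk value was not tested beyond this fit.

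Axl, a receptor that binds Gas6 but not protein S, gave values of opposite sign with its 2 probe sets. The first (1423586_at) read 0.021, 0.045 and -0.13 in WT animals 2, 3 and 4, and -0.23, -0.021, -0.31 and 0.24 in KO animals 8, 10, 11 and 12. The KO animals reached both above and below the WT animals. The difference was log2 -0.058 (SE 0.15, limma adjusted p = 0.952), with a 95% interval from 1.32-fold lower to 1.22-fold higher, and it was 0.020 without KO animal 11.

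The second probe set of Axl (1438621_x_at) read -0.026, -0.19 and -0.14 in WT animals 2, 3 and 4, and -0.083, 0.11, 0.026 and 0.48 in KO animals 8, 10, 11 and 12. Here 3 of 4 KO animals lay above every WT animal, and KO animal 12 was highest, as in the first probe set. The difference was log2 0.25 (SE 0.15, limma adjusted p = 0.762), with an exact permutation p of 0.114 and a 95% interval from 1.06-fold lower to 1.5-fold higher. This was the 1 positive difference among the 8 probe sets, and it ranged from log2 0.14 without KO animal 12 to 0.32 without KO animal 8. Names ending in _x_at mark probe sets with probes that may also match other transcripts. The first probe set had a recovered level of at least 8 on the log2 scale and the second one between 4 and 8 on its lowest array, so the value per gene was taken from the first.

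Tyro3 varied more between animals than any other of the 5 genes. It is a TAM receptor that binds both ligands. Probe set 1425248_a_at read 0.090, -0.82 and 0.57 in WT animals 2, 3 and 4, and -1.22, -0.52, 0.59 and 0.51 in KO animals 8, 10, 11 and 12. High and low animals were found in both genotypes, and highest and lowest differed 3.50-fold. Probe set 1425249_a_at read -0.067, -0.43 and 0.58 in WT and -0.68, -0.36, 0.39 and 0.45 in KO, in the same order of animals. The pattern was the same in both probe sets, whose values correlated at r = 0.97 over the 7 arrays that they share, given as a description. The within-genotype SD of 0.81 and 0.54 exceeded that of 98.8% and 96.2% of all probe sets, whose median was 0.19.

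Against this spread the genotype differences of Tyro3 were small, at log2 -0.10 (SE 0.48, limma adjusted p = 0.975) and -0.077 (SE 0.33, limma adjusted p = 0.972). The 95% intervals were wide, from 2.30-fold lower to 1.99-fold higher and from 1.77-fold lower to 1.60-fold higher. Leaving out WT animal 4 gave log2 0.21 and 0.20. Leaving out KO animal 8 gave 0.25 and 0.13, KO animal 10 gave 0.015 and 0.027, and both of these KO animals together gave 0.60 and 0.40. Without both of these the unadjusted limma p was 0.146 and 0.198.

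**Figure D2:**
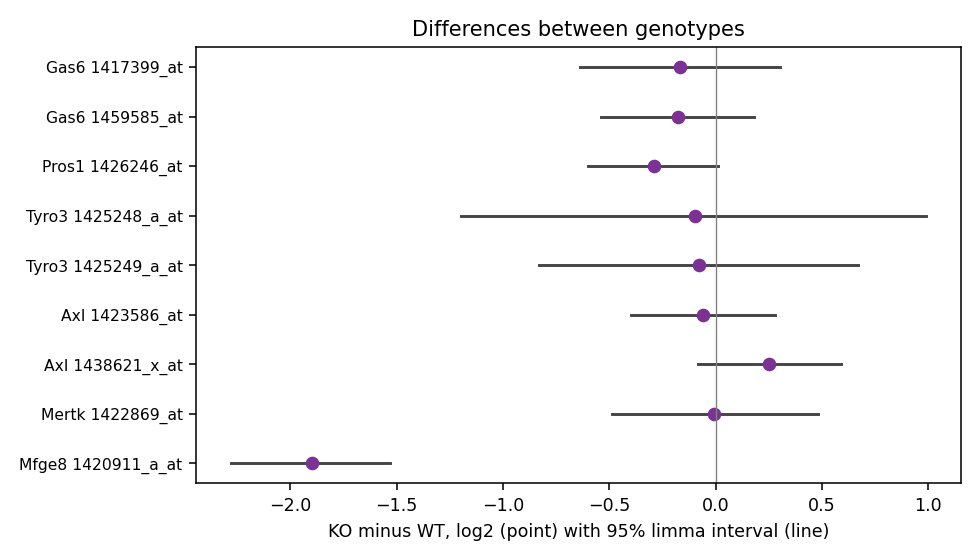
Difference between genotypes (KO minus WT, log2, x axis) for each probe set (y axis), with its 95% limma interval as a line. The intervals of all 8 TAM probe sets include 0, those of Tyro3 are the widest, and the interval of Mfge8 runs from log2 -2.28 to -1.53.

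The mean of the 10 measured keratinocyte markers (Dsg3 not among them) ordered the animals much as Tyro3 did. It was 0.062, -0.28 and 0.081 in WT animals 2, 3 and 4, and -0.69, -0.059, 0.29 and 0.35 in KO animals 8, 10, 11 and 12, with 6 of 10 markers lower in KO and 0 at even an unadjusted limma p under 0.05. The animals lowest in Tyro3, WT animal 3 and KO animal 8, were also the 2 lowest in keratinocyte markers. With that mean as a covariate, a fit added after seeing the data, the Tyro3 difference was log2 -0.13 with an SE of 0.20 in place of 0.48, and -0.095 with an SE of 0.19 in place of 0.33, at limma adjusted p of 0.856 and 0.896. The hair follicle mean was high in KO animals 8 and 10, where Tyro3 was low, and with it as a covariate the differences were log2 0.41 and 0.30 (unadjusted limma p of 0.31 and 0.253). How far the makeup of the tissue sample sets the Tyro3 value was not tested beyond these fits.

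Gene values that followed each of the 5 genes most closely over the 7 arrays were listed by Pearson correlation, among genes with at least the same SD over the arrays. With only 7 arrays and many genes compared, these are descriptions and carry no test. For Tyro3 they were Sdr9c7 (r = 0.995), an epidermal dehydrogenase of the skin barrier, Trex2 (r = 0.995), an exonuclease of keratinocytes, and Slc25a48 (r = 0.993), a mitochondrial carrier. Of the 706 genes compared with Tyro3, 29 had r above 0.95. Trex2 read 0.22, -0.67 and 1.15 in WT animals 2, 3 and 4 and -1.20, -0.22, 0.89 and 1.03 in KO animals 8, 10, 11 and 12, with the same animals above and below 0 as the value per gene of Tyro3.

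The nearest genes of Axl were Fcrl1 (r = 0.988), an Fc receptor-like gene of B cells, the sterol exporter Abcg1 (r = 0.985) and Lgals3bp (r = 0.980), a secreted galectin-binding protein. Those of Mertk were Itih5 (r = 0.972), a hyaluronan-binding matrix protein, Nrep (r = 0.963) and Snx24 (r = 0.953). Pros1 was followed by Alox5ap (r = 0.981), the activating protein of leukotriene synthesis, the histone gene H2ac19 (r = 0.976) and the transcription factor Meis2 (r = 0.970). Gas6 was followed by Stk10 (r = 0.957), a kinase of lymphocytes, the acyltransferase Agpat4 (r = 0.954) and Smtnl1 (r = 0.939), a muscle protein. None of these 15 genes passed a limma adjusted p of 0.05, Meis2 alone had an unadjusted p under 0.05 (0.0418), and their differences lay between log2 -0.48 for Smtnl1 and -0.034 for Slc25a48. Over the same arrays Mertk and Tyro3 ran in opposite directions (r = -0.64 and -0.69 with the probe sets of Tyro3), and Gas6 and Pros1 in the same (r = 0.68 and 0.66 with the probe sets of Gas6).

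**Figure D3:**
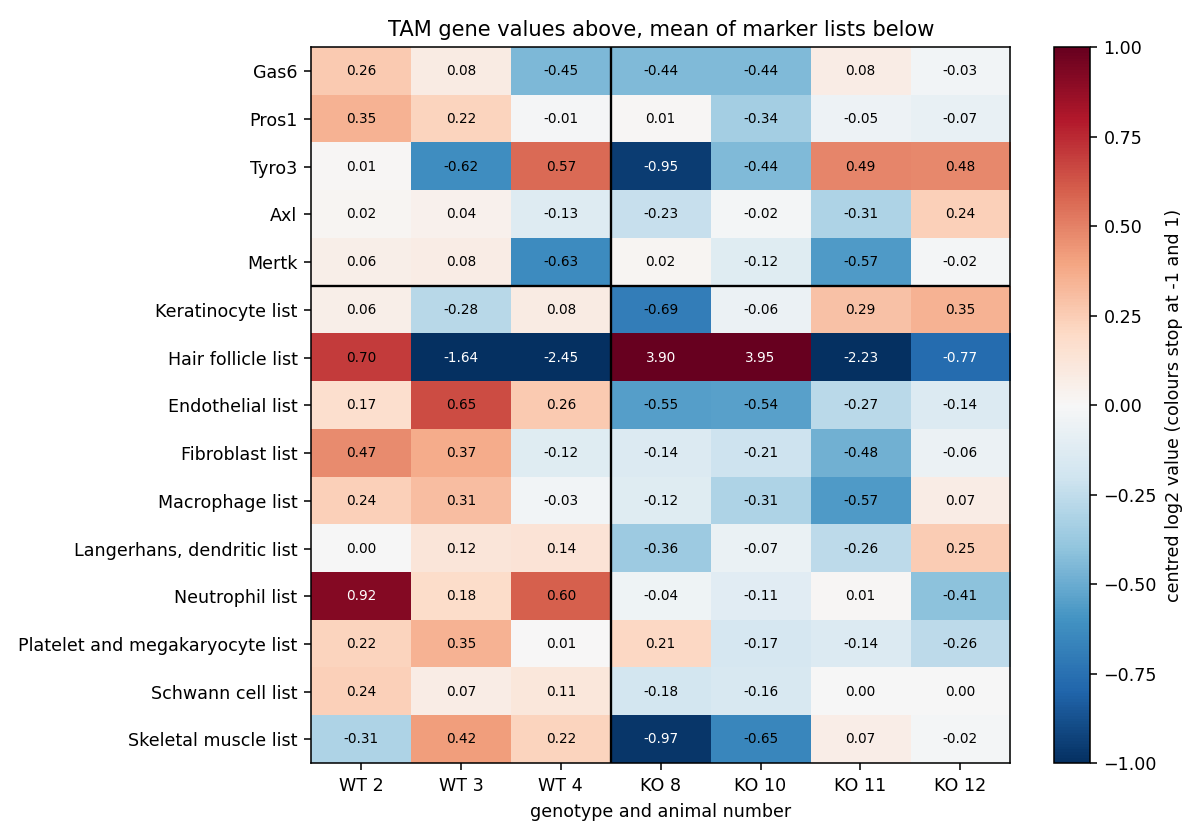
Centred log2 values per animal (columns) of the 5 TAM genes (top rows, the value per gene) and the mean of each marker list (lower rows), with numbers in the cells and colours from blue (low) to red (high). Tyro3 and the keratinocyte list are lowest in KO animal 8, and the hair follicle list is at 3.90 and 3.95 in KO animals 8 and 10.

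Markers of the other cell types were mostly lower in KO, except those of the hair follicle, which were higher in 15 of 15 genes (median log2 2.42). The hair follicle mean was 3.90 and 3.95 in KO animals 8 and 10, and -2.23 and -0.77 in KO animals 11 and 12. In none of these lists did a gene pass a limma adjusted p of 0.05 over all genes. Since the values are centred, they cannot show whether a marker was at 0. Of all genes 49.1% were lower in KO, 5.94% with an unadjusted limma p under 0.05. Endothelial markers were lower in KO in 12 of 12 genes (list mean 0.17 to 0.65 in WT and -0.55 to -0.14 in KO), and neutrophil markers in 8 of 8 (0.18 to 0.92 and -0.41 to 0.012), both without overlap. Fibroblast markers were lower in 11 of 11 (-0.12 to 0.47 and -0.48 to -0.059) and Langerhans and dendritic markers in 9 of 10 (-0.0038 to 0.14 and -0.36 to 0.25), both with overlap. Skeletal muscle markers were lower in 10 of 10, with a list mean of -0.31 to 0.42 in WT and -0.97 to 0.070 in KO. Platelet markers, a blood source of Gas6 and protein S, were lower in 3 of 5 (0.0070 to 0.35 and -0.26 to 0.21), and the 3 measured Schwann cell markers were lower in 3 of 3 (0.073 to 0.24 and -0.18 to -0.00052). Genes that were lower at that p numbered 12 among the endothelial markers, 5 each among the neutrophil and fibroblast markers, 1 each among the skeletal muscle and Schwann cell markers, and 0 among the Langerhans and dendritic and the platelet markers. With the endothelial mean as a covariate the Gas6 probe sets stood at log2 0.32 and 0.14, those of Axl at 0.20 and 0.47, and those of Tyro3 at 0.37 and 0.38. Mertk stood at 0.074 and Pros1 at -0.21 in that fit, and the limma adjusted p of all 8 was between 0.956 and 0.988. The SEs there ran from 0.31 for Pros1 to 1.07 for Tyro3 1425248_a_at, against 0.13 and 0.48 without the covariate. Because the endothelial mean did not overlap between genotypes, that fit can hardly separate it from genotype.

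The genes around the TAM receptors were described from 4 lists of 61 genes, of which 58 could be measured. Over all of them 1 gene passed a limma adjusted p of 0.05, Mfge8 itself, where 0.0275% of all genes passed. With 1 animal left out Mfge8 passed among genes only without KO animal 8, and 0 passed in the other 6 such fits. Of the 57 others 43 were lower in KO, with a median of log2 -0.15 against 0.0038 over all 18193 genes, 49.1% of which were lower. At an unadjusted limma p under 0.05, 12 of the 57 (21.1%) were lower and 0 higher, where 5.94% of all genes were lower and 2.25% higher. The lists had been chosen with earlier results of these data known. Their share beside that of all genes is therefore a description and carries no test. The smallest limma adjusted p among the 57 was 0.256, for Socs3. In place of 12 there were 7 without KO animals 8 and 10 together (where 4.74% of all genes were lower at that p), 7 when WT animal 2 was left out, 6 when WT animal 3 was and 8 when KO animal 10 was. They were 19 with array weights, 3 (5.26%, against 1.75% of all genes) with the macrophage mean as a covariate and 2 (3.51%, against 1.59%) with the endothelial mean. The macrophage, neutrophil and endothelial lists were lower in KO beside them, and beyond these fits their part in the counts was not tested. The 4 medians and the called genes are drawn in the plot of differences by list.

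**Figure D4:**
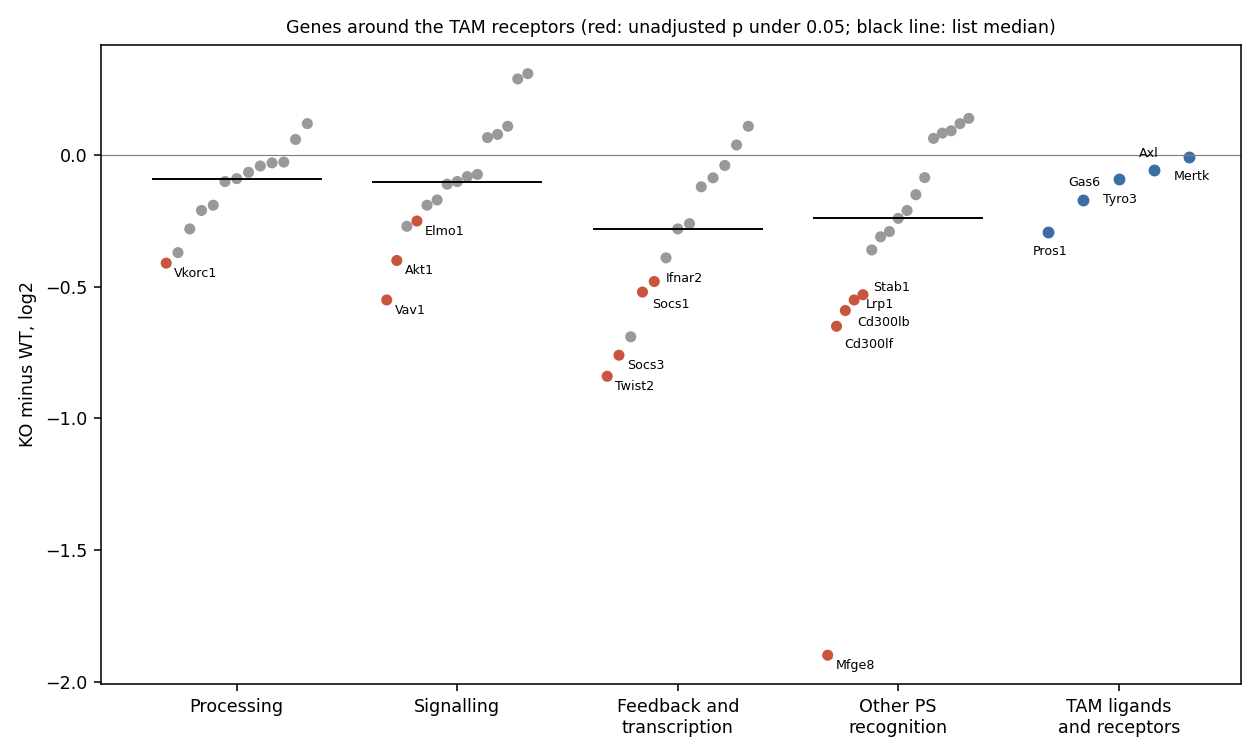
Difference between genotypes (KO minus WT, log2, y axis) of each gene in the 4 lists around the TAM receptors and of the 5 TAM genes (blue), ordered by size within a list, with a black line at each list's median. Red points have an unadjusted limma p under 0.05, all of them lie below 0, and only Mfge8 at log2 -1.90 also passed the adjusted test.

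Genes that make or cut the ligands and receptors showed small differences. Gas6 and protein S need gamma-carboxylation, and of the enzymes for it Ggcx, the carboxylase, was at log2 -0.28 (limma adjusted p = 0.677). Vkorc1, which recycles vitamin K, was at log2 -0.41 (SE 0.13, limma adjusted p = 0.475). It read 0.42, 0.29 and 0.013 in WT animals 2, 3 and 4 and -0.33, -0.23, -0.084 and -0.013 in KO animals 8, 10, 11 and 12, with no overlap. Of all probe sets 7.77% had groups without overlap. Adam17 and Adam10, the proteases that shed TAM receptors from the cell surface, were at log2 -0.19 and 0.12. C4bp, a plasma partner of protein S, was at log2 -0.026, Lgals3, a galectin reported as a Mertk ligand, at -0.029, and the thrombin receptor Thbd at -0.37. In this list of 13 genes 11 were lower in KO, where 49.1% of all genes were, with a median of log2 -0.089. Of the 13, 0 passed the adjusted test and 1, Vkorc1, had an unadjusted limma p under 0.05, where 8.19% of all genes did.

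Receptor signalling genes were lower in 10 of 15 (median log2 -0.10), where 49.1% of all genes were lower. Of the 15, 0 passed the adjusted limma test and 3 were lower at an unadjusted p under 0.05, where 5.94% of all genes were. The exchange factor Vav1, which couples Mertk to Rac, was at log2 -0.55 (SE 0.15, limma adjusted p = 0.416). It read 0.54, 0.47 and -0.0030 in WT animals 2, 3 and 4 and -0.19, -0.21, -0.36 and -0.088 in KO animals 8, 10, 11 and 12, without overlap. Vav1 is named because its p was among the smallest of the list, and 7.77% of all probe sets had groups without overlap. The kinase Akt1 was at log2 -0.40 and the engulfment adaptor Elmo1 at -0.25. Pik3cb, a catalytic subunit of PI3 kinase, was at log2 0.29 and Vav3, a relative of Vav1, at 0.31, both higher in KO without passing.

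Feedback and transcription genes were lower in 11 of 13, with a median of log2 -0.28, where 49.1% of all genes were lower. Of the 13, 0 passed the adjusted limma test and 4 were lower at an unadjusted p under 0.05, where 5.94% of all genes were. Socs3, a suppressor of cytokine signalling that TAM receptors induce, was at log2 -0.76 (SE 0.14, limma adjusted p = 0.256). It read 0.73, 0.27 and 0.65 in WT animals 2, 3 and 4 and -0.18, -0.23, -0.018 and -0.39 in KO animals 8, 10, 11 and 12, all KO animals lying below all WT animals. Groups without overlap were found in 7.77% of all probe sets. Whether TAM signalling had a part in the Socs3 value was not tested. The related Socs1 was at log2 -0.52 (limma adjusted p = 0.57), with overlap. The interferon receptor chain Ifnar2, which partners Ifnar1 in the complex that TAM receptors use for this feedback, was at log2 -0.48, and Ifnar1 at -0.39. Twist2, a transcriptional repressor that also marks fibroblasts, was at log2 -0.84 (SE 0.18, limma adjusted p = 0.291).

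Other phosphatidylserine recognition genes were lower in 12 of 17, Mfge8 included, with a median of log2 -0.24, where 49.1% of all genes were lower. At an unadjusted limma p under 0.05, 5 were lower, Mfge8 among them, where 5.94% of all genes were. After Mfge8 the smallest p-values belonged to Cd300lb (log2 -0.59), Stab1 (log2 -0.53), Lrp1 (log2 -0.55) and Cd300lf (log2 -0.65), surface receptors that bind dying cells or their ligands, with limma adjusted p from 0.459 to 0.586. Without Mfge8 the differences in this list ran from log2 -0.65 for Cd300lf to 0.14 for Stab2. Those of the 5 TAM genes, from log2 -0.29 for Pros1 to -0.0070 for Mertk, lay within that wide range.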

How the data were processed

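GCRMA is the one tool that the submitters' processing notes name, without a version. The deposited table is read here as log2 expression, the scale GCRMA returns, with a baseline that is not given in the sources used here. The table holds 45101 probe sets on 7 arrays, and 64 controls were left out. In 72.4% of probe sets a neighbouring pair of values mirrored around 0 (tolerance 1e-06), as subtracting the median of an even number of arrays leaves. The median of these 7 arrays would leave a value of 0 in place of such a pair. The baseline was therefore not the median of these 7 arrays alone. Lowest levels of 8 or above, 4 to 8 and 2 to 4 were recovered from the rounding steps for 26.4%, 54.3% and 19.4%. Array medians lay between -0.0042 and 0.0121. The platform annotation gave 34945 probe sets 1 symbol, 932 several and 9160 none, and 34741 matched RefSeq by Entrez ID, with 0 symbols updated. A gene's value was the mean of its probe sets in its highest level.

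Genotypes were compared unpaired with limma 3.58.1 (lmFit, eBayes) in R 4.3.3, with 95% intervals and Benjamini-Hochberg adjustment over all probe sets or genes (threshold 0.05), and with exact permutation tests (scipy 1.17.1). Each limma p-value sets a difference against the spread between these animals, with its variance drawn towards that of all probe sets or genes. The pipeline was tested on simulated data. Alternatives were quantile normalization, median subtraction, eBayes trend and robust, array weights, left-out animals, marker means as covariates, level and probe set filters; the keratinocyte covariate, and running the alternatives on Mfge8, were chosen after seeing the data. Members, 4 pathway lists and 10 marker lists came from textbook knowledge with earlier results of these data known. Named were the members, Mfge8, up to 5 genes per pathway list with the smallest p, 8 set partner and feedback genes, and 3 genes most alike each member. Protein sequences were not used here.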

Additional observations from a re-analysis of the deposited data

Results flagged for a closer look

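Among the 66 values tested, the 8 probe sets of the TAM genes and the 58 genes around them, 3 had a KO animal set apart from the other 3, by a gap that exceeded 0.829 of the KO range; chance alone marks about 1 in 20. Ggcx was at -0.59 in KO animal 11 and between -0.12 and -0.042 in the other KO animals. Vav3 was at -0.10 in KO animal 10 and between 0.10 and 0.13 in the others. Elmo1 was at 0.063 in KO animal 12 and between -0.21 and -0.17 in the others. None of the 8 TAM probe sets was among them.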

How the results depend on the processing

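Over the 15 alternatives that can move a difference, 95 of 120 differences of the 8 probe sets kept the main sign and 25 did not. No limma fit of the members reached an adjusted p under 0.05 (smallest 0.227 per probe set and 0.156 per gene). The cause was not tested. Without KO animals 8 and 10 together Gas6 stood at log2 0.061 and 0.044, and Tyro3 at 0.60 and 0.40 (0.50 per gene). With the endothelial mean as a covariate the values were 0.32 and 0.14 for Gas6, 0.074 for Mertk, 0.20 for Axl 1423586_at and 0.37 and 0.38 for Tyro3 (0.37 per gene). That fit can hardly separate the covariate from genotype, and these SEs ran from 0.33 for Axl 1423586_at to 1.07 for Tyro3 1425248_a_at. The hair follicle mean gave 0.41 and 0.30 for Tyro3 (0.36 per gene), and the macrophage mean gave 0.47 for Mertk and 0.21 for Axl. Quantile normalization gave 0.040 for Mertk, and the mean of all probe sets gave 0.10 for Axl. Pros1 and Axl 1438621_x_at kept their sign in all 15 (log2 -0.44 to -0.19 and 0.14 to 0.47).

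Leaving out 1 animal gave ranges of log2 -0.38 to -0.023 and -0.27 to -0.089 for Gas6, -0.39 to -0.21 for Pros1, -0.17 to 0.020 and 0.14 to 0.32 for Axl, -0.24 to 0.12 for Mertk, and -0.49 to 0.25 and -0.30 to 0.20 for Tyro3 (-0.40 to 0.20 per gene). Mfge8 ranged from -2.03 to -1.81; it did not pass with the macrophage (log2 -1.97, limma adjusted p = 0.208) or endothelial mean (log2 -2.50, limma adjusted p = 0.321). Of the genes around the receptors, 0 in place of 1 passed after quantile normalization, with eBayes trend and robust, with either of these covariates, or without _x_at, _s_at and _a_at probe sets, which leave out that of Mfge8; leaving out 1 animal gave 0 to 1 (1 only without KO animal 8). No paired analysis was possible because the animal numbers of the genotypes differ. The number of arrays limits what can be seen.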
